A study of Saccharomyces cerevisiae with 25 samples.

Results

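Between 105 and 165 min after budding yeast was moved to medium without phosphate, 391 genes crossed a step of at least 1 log2 unit, and this section follows the order in which they did so. The genes were chosen by their values: of 6650 named genes, 3230 had a value in each of the 5 libraries taken at 105, 120, 135, 150 and 165 min, and 391 of these differed by at least 1 log2 unit between the first and the last of the 5. The 213 genes that were higher at 165 min (6.59% of the 3230) are called rising genes, and the 178 that were lower (5.51%) falling genes. Because the rule used these 5 libraries, the sizes and the order given from them are a description and carry no test.

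Transcript levels were measured by RNA sequencing of total RNA from BY4741, a haploid laboratory strain of Saccharomyces cerevisiae of mating type a with deletions of HIS3, LEU2, MET17 and URA3, which every sample shares. Cells were grown overnight in high phosphate, washed and transferred, and the series holds 25 libraries: 1 from high phosphate at 0 min and 24 from medium without phosphate at steps of 15 min up to 360 min. Each time is 1 library of 1 course, so no value has a replicate. HIS3, LEU2, MET17 and URA3 were listed in none of the 25 libraries, whereas STE2, the receptor for the pheromone of the opposite mating type, and the a-pheromone genes MFA1 and MFA2 were listed in all 25. STE3, which is specific to the other mating type, was listed in 24 libraries at 4.24 to 6.01 log2 RPM.

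Yeast short of phosphate first turns on the PHO genes, which encode transporters and phosphatases that take up and release phosphate, through the transcription factor Pho4. When growth slows, ribosomal protein genes and the genes for ribosome biogenesis, which process and assemble ribosomal RNA, are turned down. Genes of the environmental stress response, reached through the factors Msn2 and Msn4, are turned up in the same state. In bulk samples such as these, fewer cells with a transcript and less of it per cell cannot be told apart.

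Values are log2 RPM, the log2 of reads scaled to a library sum of 1000000, and a gene has no value in a library where it fell below a floor. The floor was taken as 10 reads, which gave depths of 1148249, 209394, 563279, 790762 and 1073008 reads for the 5 libraries in order of time. The 120 min library stood apart. It had the lowest depth of all 25 libraries and listed 3261 genes, against 4325 to 5392 in the others, with a floor of 47.8 RPM. In it, 19.2% of the 3230 genes lay more than 1 log2 unit from their value at 105 min, against 0.683% in the step from 90 to 105 min and 1.95% in the step from 150 to 165 min. Genes with a coding length of up to 300 bases lay 0.45 log2 units above the mean of the neighbouring libraries (median of 160 genes), and those over 2400 bases 0.17 (443 genes). Its part in the order was not tested, so the main results are also given without it.

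**Figure D1:**
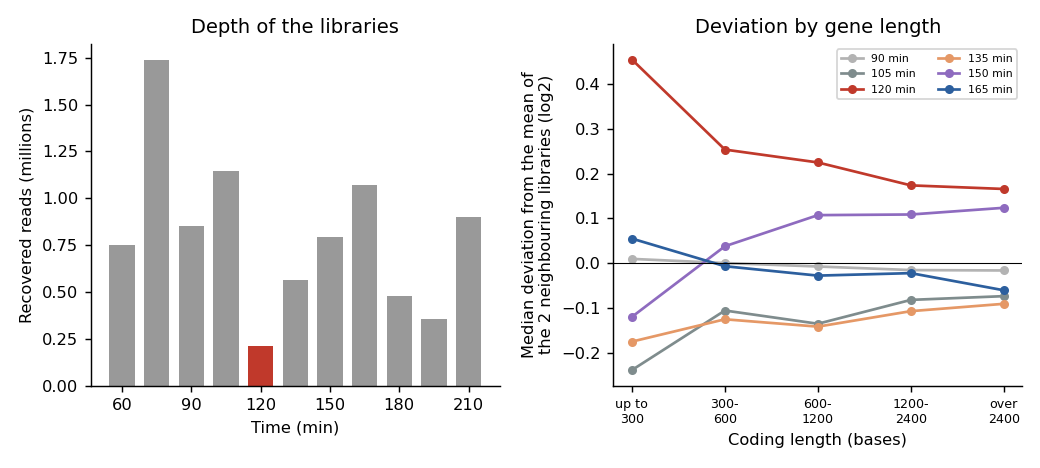
Left, recovered reads in each library from 60 to 210 min, with the 120 min library in red at 209394 reads. Right, the median deviation of a library from the mean of its 2 neighbours in time (log2), by coding length in bases. The 120 min library is at 0.45 for the shortest genes and at 0.17 for the longest.

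A gene listed at 120 min needed about 10 reads in the shallowest library, so genes of low level could enter only by being high there. Another 118 genes were at least 1 log2 unit higher at 165 min and 17 at least 1 unit lower, but had no value at 120 min. These 118 had done a median of 73.3% of their difference by 135 min and 82.3% by 150 min. At the threshold, SRN2 (1.002) lay just inside on the rising side, and OXR1 (0.999) and ADE12 (0.999) just outside. On the falling side, YCR016W (-1.02) and MET8 (-1.03) lay inside, and AAH1 (-0.98) and ROK1 (-0.99) outside.

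The level of the median gene also moved, by 0.24 log2 units from 105 to 120 min and 0.26 from 105 to 165 min over the genes listed in all 25 libraries. After each library was centred on that median, 89 of the 213 rising genes still differed by at least 1 log2 unit, and all 178 falling genes did. Over all 3230 genes the centred counts were 89 higher and 232 lower, so the balance turned from more rising to more falling genes. The count of rising genes therefore depends on this scaling.

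The rising genes, as chosen, had most of their difference in place in the first step. By 120, 135 and 150 min the median rising gene had done 83.1, 79.2 and 97.1% of it. For 151 of the 213 (70.9%) the step from 105 to 120 min was the largest of the 4, which it also was for 45.1% of all 3230 genes. Of the 213, 79 stood above their 165 min level already at 120 min. A steady climb was uncommon, since 22 (10.3%) rose in all 4 steps, beside 3.87% of all genes that went one way in all 4. A value at 120 min was needed, so genes of low level are in the set only if they were high there. The shares and largest steps at 120 min are therefore in part set by the rule. The 118 genes higher at 165 min but with no value at 120 min had done a median of 73.3% by 135 min.

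Falling genes, most of them ribosomal protein genes, moved through 3 steps at the median instead. The median falling gene had done 32.4, 56.0 and 96.4% of its difference by 120, 135 and 150 min, and was lower by 1.88 log2 units at 165 min. The largest step was the first for 68 genes (38.2%), the second for 52 (29.2%), the third for 54 (30.3%) and the last for 4 (2.25%). Over all 3230 genes these shares were 45.1, 26.7, 16.5 and 11.7%. All 4 steps went down in 60 of the 178 (33.7%), beside 3.87% of all genes that went one way in all 4. The 44 falling genes not in the ribosomal protein list had done 53.0, 84.1 and 91.9% by 120, 135 and 150 min.

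The order was put on a time scale with a switch time, computed from the shares done at 120, 135 and 150 min. A gene that makes its whole difference between 105 and 120 min has a switch time of 112.5 min, and one that moves in a straight line has 135 min. The median switch time was 118.5 min for the rising genes (interquartile range 111.2 to 125.7, median counting SE 6.1 min) and 128.6 min for the falling genes (123.3 to 132.5, median counting SE 1.8 min). To leave out the 120 min library, the share there was set midway between those at 105 and 135 min. The genes were still those with a value at 120 min. A gene already near its 135 min level at 120 min moves later by this filling-in alone. The medians were then 124.9 and 129.8 min, a smaller distance that the filling-in in part sets. The falling median is mostly that of the ribosomal protein genes. The other 44 falling genes had a median of 121.7 min. Without 120 min they had 124.8 min, level with the rising genes under the same filling-in. Among the genes with at least 30 reads in each of the 5 libraries the medians were 117.6 min (86 rising) and 129.5 min (149 falling), and without 120 min 123.3 and 130.4 min. This subset needs 30 reads at 120 min too, so it narrows the choice in the same way.

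Genes with a switch time under 130 min are called first, those over 140 min last and the rest middle. Of the rising genes, 174 were first, 26 middle and 13 last, and of the falling genes 105 were first, 63 middle and 10 last. Without the 120 min library, 147 of the 174 first rising genes and 80 of the 105 first falling genes stayed first, and 5 of 13 and 3 of 10 stayed last. The ranks with and without that library, which share the other 4, had a Spearman correlation of 0.68 across rising genes and 0.78 across falling genes.

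**Figure D2:**
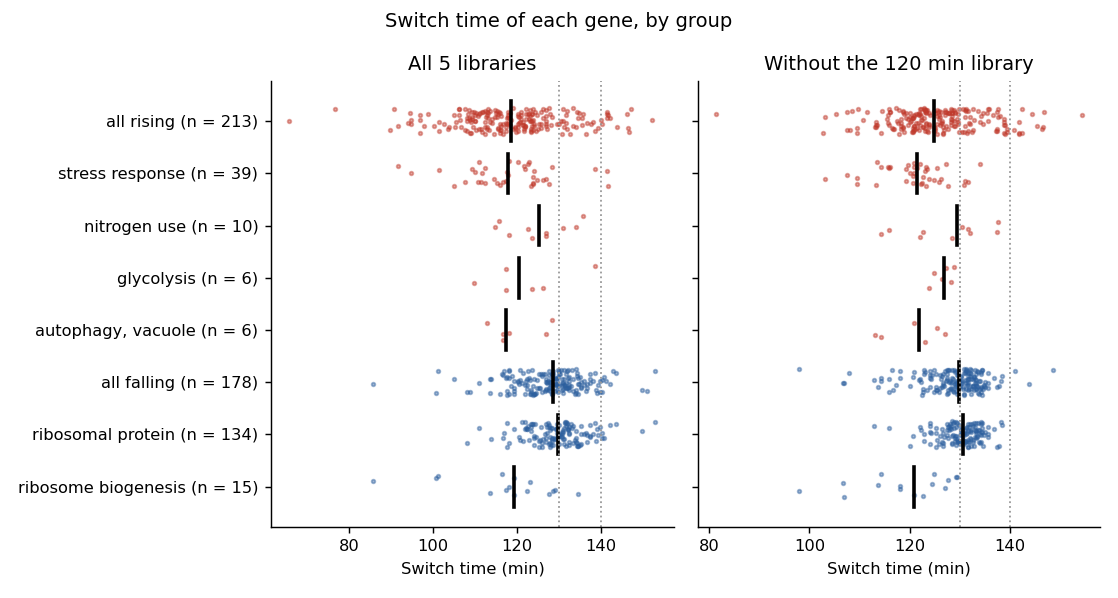
Switch time in min of each gene (points) by group, with the group median as a black bar and dotted lines at 130 and 140 min. All 5 libraries are on the left and the 4 without 120 min on the right. The median is 118.5 min for rising and 128.6 min for falling genes on the left, and 124.9 and 129.8 min on the right.

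Ribosomal protein genes made up most of the falling genes. Of the 136 ribosomal protein genes with 5 values, 134 were falling genes (98.5%). The 2 others were RPL15B, lower by 0.41 log2 units, and RPS30A, lower by 0.94. Together the ribosomal protein genes took 26.2, 22.3, 13.4, 7.94 and 7.44% of all reads in the 5 libraries in order of time. The share had been between 27.2% and 28.7% from 15 to 90 min. The median of the whole list relative to 105 min was -0.58, -1.08, -1.89 and -2.0 log2 units at the 4 later times, beside 0.29, 0.17, 0.30 and 0.26 over all 3230 genes.

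Within the list, the median switch time was 129.8 min, and 130.7 min without the 120 min library. The 80 genes of the large subunit had a median of 129.3 min and the 54 of the small subunit 130.7 min. Without 120 min these were 131.1 and 129.7 min, so the order of the subunits turned with that library. Switch times ran from 108 to 153 min over the 134 genes, of which 69 were first, 58 middle and 7 last.

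Most yeast ribosomal proteins are encoded by a pair of nearly identical genes, and both genes of 56 pairs were falling genes. The 2 genes of a pair differed by a median of 5.06 min. In 26 pairs the difference was within 2 counting SE, and in 30 it was beyond. The closest pair was RPS19A and RPS19B, 0.03 min apart, and the most distant was RPL35A and RPL35B, at 142.3 and 123.4 min. Of the 134 genes, 106 had at least 1 value that was not a whole number of reads within 0.01, against 30 of the other 257 rising and falling genes. Among these 30 were NOP58, CBF5, SSB1, SSB2, TDH1, HPF1, INH1, PHO5 and PHO3. How reads with several matches were counted is not given in the sources, so the 2 genes of a pair may not be independent, and the counting SE does not cover this.

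RPP0, which encodes the stalk protein of the large subunit (chrXII:805887-806825 in build R64), stood at 11.46, 9.45, 10.05, 8.82 and 9.17 log2 RPM at 105, 120, 135, 150 and 165 min. RPL10, a large-subunit protein added late in assembly, was at 11.28, 10.15, 10.38, 8.92 and 9.67. RPS27A, of the small subunit, was at 9.01, 8.14, 7.62, 6.98 and 7.63. All 3 were lowest at 150 min and stood higher again at 165 min, which places them among the first, at 117.8, 116.6 and 111.0 min. RPL33B, RPS11A and RPS27B, the other ribosomal protein genes among the 8 first of the falling genes with at least 30 reads, were also lowest at 150 min, as was YBR191W-A, which completes the 8 with SSB1. YBR191W-A had nearly the values of RPL21A (9.08 and 9.10 log2 RPM at 105 min, 7.31 in both at 120 min) and may not be a separate signal, although it counts among the 44 falling genes outside the ribosomal protein list.

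RPL9A, with the largest fall among genes with at least 30 reads in each library (chrVII:227754-228329), stood at 10.29, 9.46, 8.83, 7.58 and 7.67 log2 RPM. It was lower by 2.62 log2 units, 6.14-fold, and its switch time was 128.8 min. RPS9B, at 11.36, 10.63, 10.04, 9.60 and 9.08, went down in each of the 4 steps. RPS26B, RPS29A and RPL34A were lower by 2.54, 2.32 and 2.29 log2 units.

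Of the 8 last falling genes with at least 30 reads, 7 were ribosomal protein genes that did not go down at 120 min. RPL28 (12.16, 12.23, 11.41, 10.97 and 10.48 log2 RPM) and RPL29 (10.25, 10.52, 9.22, 8.61 and 8.14) were above their 105 min level there. RPL41A, whose coding sequence of 78 bases is among the shortest in yeast, stood at 14.04, 15.25, 13.56, 12.99 and 12.89. Its copy RPL41B also stood higher at 120 min. Without the 120 min library RPL41A moved from 153.1 to 134.3 min and RPL41B from 149.9 to 133.2 min, and RPL29 from 140.4 to 134.8 min. Short genes stood high as a class in that library. Falling ribosomal protein genes of up to 300 bases had a median switch time of 127.7 min. Those of 300 to 600 bases had 130.4 min and those over 600 bases 129.4 min, so the shortest were not the latest as a class. The part of length in the late end was not tested.

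Falling genes outside the ribosome had, at the median, earlier switch times. The 44 falling genes not in the ribosomal protein list had a median switch time of 121.7 min, with 36 first, 5 middle and 3 last. They had done 53.0, 84.1 and 91.9% of their difference by 120, 135 and 150 min, and the median difference was -1.18 log2 units. Without the 120 min library their median was 124.8 min, against 130.7 min for the ribosomal protein genes. The counting SE of a single one of these genes was 6.7 min at the median.

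Ribosome biogenesis genes formed the largest group of these 44. Of 112 with 5 values, 15 were falling genes (13.4%, beside 5.51% of all), and 32 lay past 1 log2 unit down after centring. The 15 had a median switch time of 119.3 min, or 120.9 min without 120 min. The median of the whole list was -0.20, -0.76, -0.55 and -0.52 log2 units at 120, 135, 150 and 165 min relative to 105 min, so it was lowest at 135 min. The ribosomal protein list went on down to 165 min.

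NOP58, a core protein of the box C/D particles that guide RNA methylation, was at 9.82, 8.89, 9.0, 8.72 and 8.57 log2 RPM. CBF5, the pseudouridine synthase of the H/ACA particles, was at 9.71, 8.50, 8.78, 8.99 and 8.59. UTP10, of the complex that processes the small-subunit RNA, was at 7.6, 7.21, 6.50, 6.98 and 6.48. NOP58 and CBF5 had most of their fall in place at 120 min, and UTP10 at 135 min. YOR309C, also among the 44, lay close to NOP58 (9.74 log2 RPM at 105 min and 8.46 at 165 min) and may not be a separate signal.

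The promoters of these genes are shown because they carry the 2 motifs described for ribosome biogenesis genes, PAC (GATGAG) and RRPE (AAAAATTT). Each runs from 250 to 70 bases before the start codon, 5′ to 3′ on the strand of the gene, from the RefSeq genome of build R64, with motif matches on either strand in capitals. They lie at chrXV:898430-898610 (minus strand, NOP58), chrXII:505884-506064 (plus strand, CBF5) and chrX:217379-217559 (minus strand, UTP10). They were chosen after it was seen that they hold a match.
NOP58: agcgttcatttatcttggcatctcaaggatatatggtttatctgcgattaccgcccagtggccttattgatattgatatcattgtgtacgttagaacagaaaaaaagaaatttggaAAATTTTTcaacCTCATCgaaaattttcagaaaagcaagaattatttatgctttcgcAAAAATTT
CBF5: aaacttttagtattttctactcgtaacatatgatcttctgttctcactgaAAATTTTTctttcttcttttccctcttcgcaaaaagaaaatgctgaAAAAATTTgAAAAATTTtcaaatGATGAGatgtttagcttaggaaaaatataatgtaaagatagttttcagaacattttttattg
UTP10: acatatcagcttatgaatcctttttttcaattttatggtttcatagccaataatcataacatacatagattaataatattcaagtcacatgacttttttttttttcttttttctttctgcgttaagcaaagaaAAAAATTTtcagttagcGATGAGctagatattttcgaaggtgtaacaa

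In NOP58 the PAC match lies 122 to 117 bases before the start codon, in CBF5 131 to 126 and in UTP10 100 to 95, each with at least 1 RRPE match in the same stretch. Over windows from 250 bases before to 50 after the start codon, read on both strands, PAC was present in 59.5% and RRPE in 69.0% of 42 falling genes outside the ribosomal protein list. In the 134 ribosomal protein genes the shares were 11.2% and 13.4%, and in all 6020 protein-coding genes 20.3% and 14.1%. Of the 15 falling ribosome biogenesis genes, 14 held PAC and 14 held RRPE. Among first falling genes 31.1% held PAC, among middle ones 12.7%, and of the 10 last ones none. RRPE was in 35.0, 14.3 and 20% of the same classes. Of the 44 falling genes outside the ribosomal protein list 36 were first, so class and list were not separated here. A match is a run of letters and not a bound site. A Rap1 motif, searched in a strict form, was found in 4 of the 134 ribosomal protein windows and in 0.664% of all windows.

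SSB1 and SSB2, nearly identical chaperones of the Hsp70 family that bind ribosomes, were early. SSB1 stood at 10.45, 9.01, 9.46, 8.42 and 8.84 log2 RPM and SSB2 at 10.79, 9.47, 10.17, 9.63 and 9.58, with switch times of 116.0 and 119.0 min. STM1, a protein that binds ribosomes, came later, at 9.84, 9.46, 9.12, 8.27 and 8.06 and a switch time of 134.9 min. Of 28 genes for RNA polymerases I and III with 5 values, 3 were falling (10.7%, beside 5.51% of all). Only 1 of the 3 had at least 30 reads in each library. RPA190, the largest subunit of polymerase I, was among the 3, at 120.8 min. The median of the whole list was 0.31 log2 units at 120 min and -0.06 at 165 min relative to 105 min. MAF1, a repressor of polymerase III, was a rising gene, at 123.1 min. URA1, which acts in pyrimidine synthesis, was lower by 1.35 log2 units, with a switch time of 124.8 min. DED81, the asparaginyl-tRNA synthetase, was among the last, at 141.4 min with the 120 min library and 140.9 min without it.

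**Figure D3:**
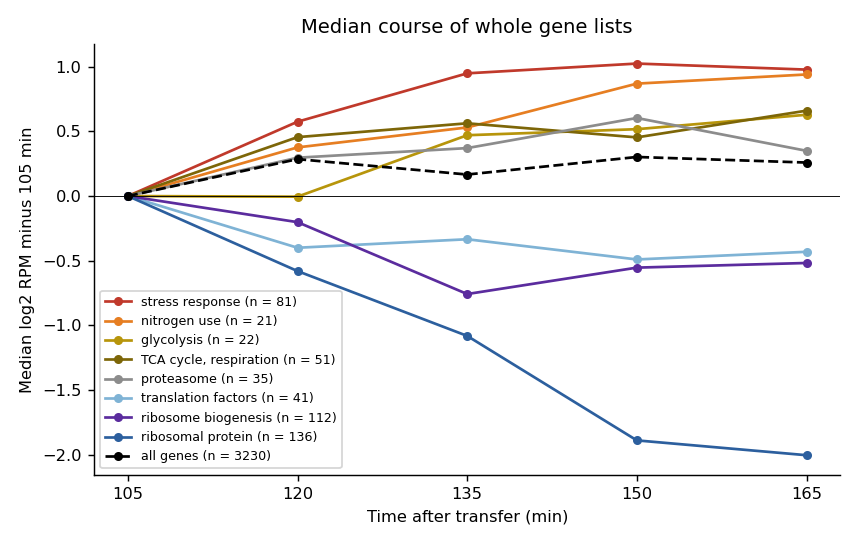
Median of whole gene lists in log2 RPM relative to 105 min, against time in min, with every listed gene that had 5 values and not only rising or falling ones. The ribosomal protein list reaches -2.0 at 165 min, ribosome biogenesis is lowest at 135 min at -0.76, and the stress list is at 0.95 at 135 min and 0.98 at 165 min. The dashed line is the median of all 3230 genes.

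On the rising side the induced stress response was the largest group. Of its 81 genes with 5 values, 39 were rising genes (48.1%, beside 6.59% of all), of which 36 were first, 1 middle and 2 last. Their median switch time was 117.9 min, and 121.4 min without the 120 min library. The whole list had a median of 0.57, 0.95, 1.02 and 0.98 log2 units at the 4 later times. After centring, 24 of its genes still differed by at least 1 log2 unit.

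HSP26, a small heat shock protein (chrII:382030-382674), stood at 7.54, 9.71, 8.93, 10.10 and 9.58 log2 RPM at the 5 times. PGM2, the phosphoglucomutase on the way to glycogen and trehalose, was at 6.72, 8.43, 8.65, 8.27 and 8.11. GPH1, glycogen phosphorylase, was at 6.72, 7.61, 8.88, 8.96 and 8.70. HSP26 and PGM2 had passed their 165 min level at 120 min, and GPH1 did so at 135 min. Their switch times were 112.6, 101.6 and 117.4 min.

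STF2, a hydrophilin linked to the ATP synthase, was among the first of all, at 8.09, 9.98, 9.48, 9.82 and 9.23 log2 RPM and 91.7 min. CMK2, a calmodulin-dependent kinase, was at 5.93, 7.47, 7.70, 7.62 and 7.13, with 94.9 min. CMC4, which encodes a protein of the mitochondrial intermembrane space and has a coding length of 222 bases, went from 5.23 to 8.34 at 120 min and back to 6.38, 7.25 and 6.26. Its 105 min level lay under the floor of the 120 min library (5.58 log2 RPM), so it could enter only by being higher there. A switch time before 105 min, as in these 3, arises where a gene stood above its 165 min level in between. Without 120 min the 3 had 107.5, 103.0 and 102.8 min. MUK1, STF1, AIM17, YBR230W-A and FMP46 completed the 8 first, at 94.9 to 100.3 min, or 107.4 to 118.3 min without 120 min.

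Genes that went up more steadily included members of the glycolysis and nitrogen-use lists. TDH1, an isozyme of glyceraldehyde-3-phosphate dehydrogenase (chrX:338271-339269), had the largest rise among genes with at least 30 reads, at 8.63, 9.88, 10.27, 10.91 and 11.12 log2 RPM, 5.60-fold higher at the end. GAP1, the general amino acid permease, was at 6.53, 7.78, 8.02, 8.28 and 8.73. HPF1, a cell wall mannoprotein, was at 8.21, 9.29, 9.51, 9.90 and 10.28. All 3 went up in each of the 4 steps, with switch times of 126.3, 126.9 and 128.1 min.

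Of 22 glycolysis genes with 5 values, 6 were rising genes, with a median of 120.6 min. It was 126.9 min without 120 min and 119.0 min without 135 min, where the stress list had 121.4 and 121.3 min, so the order of the 2 lists turned with the library left out. The median of all 22 was -0.0048 at 120 min, beside 0.29 for all 3230 genes, and -0.24 after centring. It stood at 0.47 at 135 min and 0.63 at 165 min without centring. PYK2, a pyruvate kinase isozyme, was the first of them at 109.8 min and GLK1, glucokinase, the last at 138.7 min. Of 21 nitrogen-use genes, 10 were rising genes, with a median of 125.3 min, or 129.4 min without 120 min. GDH2, the NAD-dependent glutamate dehydrogenase, was late among them, at 131.1 min.

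Smaller lists had fewer rising genes, to be read beside 6.59% of all genes. In the autophagy and vacuole list 6 of 15 genes were rising, among them the vacuolar protease PEP4 (128.4 min), the aminopeptidase LAP4 (118.2 min) and ATG22, an exporter of amino acids from the vacuole (116.8 min). In the TCA cycle and respiration list 7 of 51 were rising, with STF1, an inhibitor of ATP hydrolysis by the mitochondrial ATP synthase, at 96.9 min, INH1, of the same function, at 122.3 min and COX5B, a cytochrome oxidase subunit, at 121.9 min. Hydrophilins and related genes had 7 of 15, trehalose and glycogen 5 of 14, and the gluconeogenesis and glyoxylate list 3 of 12. After centring, the counts past 1 log2 unit were 2 in the autophagy and vacuole list, 3 in TCA cycle and respiration, 5 in the hydrophilins, 2 in trehalose and glycogen and 0 in gluconeogenesis and glyoxylate, and 4 in glycolysis and 6 in nitrogen use.

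The stress motif AGGGG, the core read by Msn2 and Msn4, was, of the 14 motifs searched, the one whose share in the rising genes stood highest relative to all windows. It was present in 39.8% of 206 rising genes, 13.6% of 176 falling genes and 21.6% of all 6020. Among rising genes it was in 42.3% of the first, 30.8% of the middle and 3 of 12 last. In the 39 rising stress genes it was in 53.8%. GATAAG, read by the factors of nitrogen repression, was in 25.2% of rising genes and 14.6% of all, and in 2 of the 10 rising nitrogen-use genes. The windows of PGM2 (chrXIII:477676-477856, minus strand) and TDH1 (chrX:338021-338201, plus strand) are shown as 1 early and 1 steady riser that hold the motif, in the same frame as above with AGGGG in capitals, and were likewise chosen after the match was seen. HSP26 and GPH1 held no match in their windows, which says only that these letters are not there.
PGM2: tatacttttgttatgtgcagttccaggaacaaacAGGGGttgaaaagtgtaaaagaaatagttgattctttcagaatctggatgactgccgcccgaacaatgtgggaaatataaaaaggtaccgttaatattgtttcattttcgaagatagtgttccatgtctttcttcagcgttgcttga
TDH1: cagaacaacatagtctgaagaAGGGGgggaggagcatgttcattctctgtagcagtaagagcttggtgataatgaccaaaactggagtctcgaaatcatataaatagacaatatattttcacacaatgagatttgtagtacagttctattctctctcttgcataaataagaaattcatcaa

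The PHO genes, 5 of which were called higher already before 105 min (see the comparison of 60 to 90 with 15 to 45 min), had members at both ends of the order. Of 10 phosphatase genes with 5 values, 5 were rising and 1 falling; of 6 uptake genes 1 was rising; of 7 polyphosphate genes 1; and of 7 signalling genes 1, beside 6.59% rising of all genes. After centring, 2 phosphatase genes, no uptake gene, 1 polyphosphate gene and no signalling gene lay past 1 log2 unit up. PHM6, a gene of unknown function in the PHO regulon, stood at 9.34, 11.32, 10.44, 10.62 and 10.85 log2 RPM. PHO5, the secreted acid phosphatase (chrII:429548-430951), was at 10.99, 11.78, 12.06, 12.50 and 12.35. PHM8, a nucleotidase, was at 7.55, 9.24, 8.93, 9.11 and 9.59. These 3 were first, at 114.2, 120.4 and 123.4 min.

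PHO89, the sodium-coupled phosphate transporter, was the last rising gene with at least 30 reads, at 8.71, 8.28, 9.26, 8.96 and 9.73 log2 RPM and a switch time of 152.2 min. It stood below its 105 min level at 120 min and moved to 141.8 min without that library. PHO8, the vacuolar alkaline phosphatase, was at 6.78, 6.96, 7.37, 7.26 and 7.88, with 140.5 min, or 138.9 min without 120 min. GDE1, HOR2 and PLC1, which act on glycerophosphocholine, glycerol phosphate and phosphoinositides, were first, at 121.5, 123.8 and 108.9 min. PHO3, another acid phosphatase next to PHO5 and similar to it in sequence, was the falling one, at 7.19, 5.86, 5.57, 5.86 and 5.32. The Pho4 motif CACGTG was found in none of the 8 rising PHO genes within these windows and in 2.91% of all. With 8 genes and windows that begin 250 bases before the start codon, this says only that these letters are not there. A second Pho4 motif searched, CACGTT, was in 1 of the 8, in 14.6% of 206 rising genes and in 9.10% of all.

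Besides PHO89, the late rising genes included RNR4, the small subunit of ribonucleotide reductase (8.41, 8.48, 8.86, 9.03 and 9.48 log2 RPM, 141.5 min), and YDR134C (147.3 min). WTM1, which holds that subunit in the nucleus, was at 130.7 min, and SNZ1, of vitamin B6 synthesis, at 132.0 min. Both were among the 8 last rising genes with at least 30 reads but lie in the middle class. Of the 13 last rising genes, 5 stayed last without the 120 min library. GLK1, YDR134C and PHO89 were each below their 105 min level at 120 min, above it at 135 min and lower again at 150 min. RNR4 and WTM1 went up in each step.

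**Figure D4:**
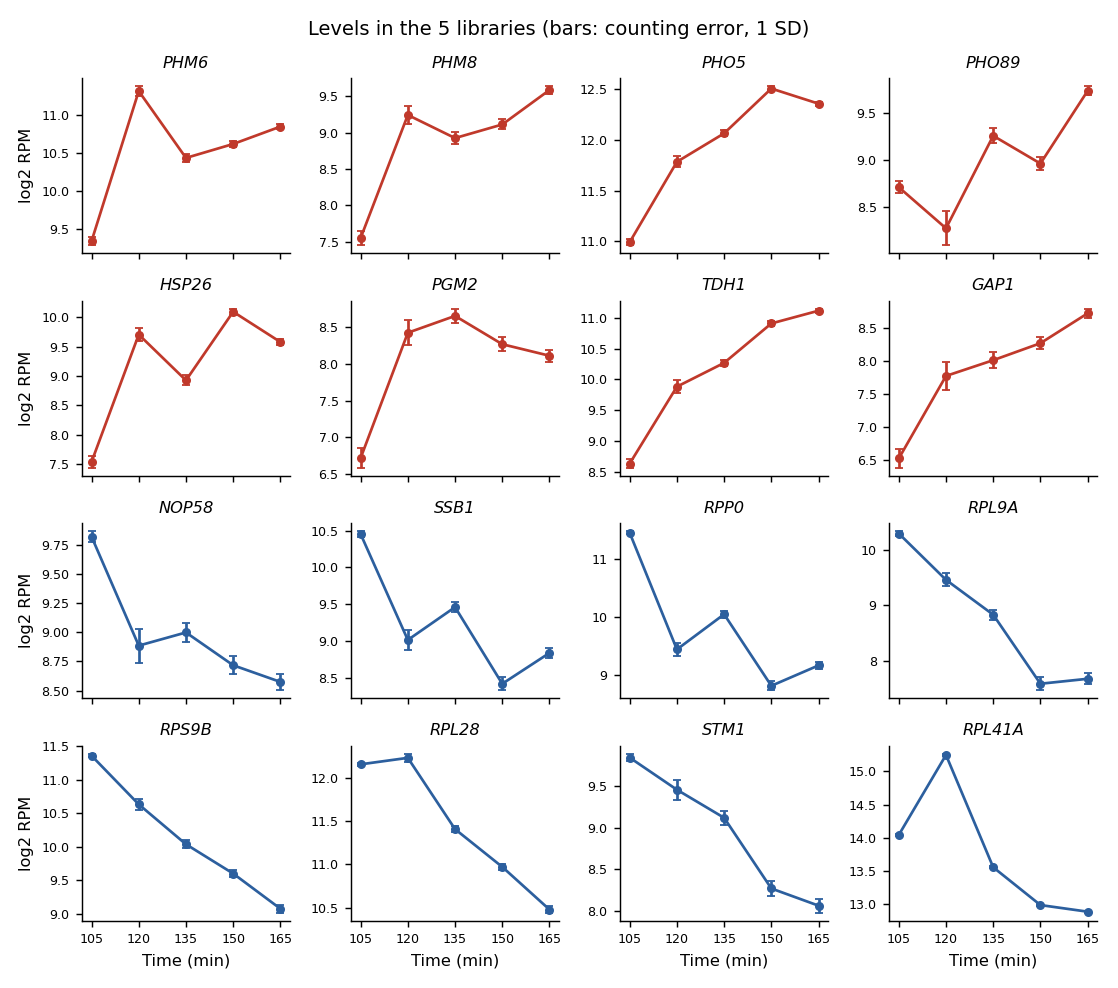
Levels of 16 genes in log2 RPM at 105, 120, 135, 150 and 165 min, rising genes in red and falling ones in blue, each panel on its own axis. Bars are the counting error of a value (1 SD), which leaves out all other error. PHM6 and HSP26 stand above their neighbours at 120 min, TDH1 and GAP1 climb through all steps, and RPL41A peaks at 120 min at 15.25.

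The same genes were then read in 19 libraries that the rule did not use. Windows of 3 or 4 neighbouring times stood in for replicates, with limma fitted to 4598 genes and Benjamini-Hochberg adjusted two-sided p-values at 0.05. Since the labels give 1 library for each time, these p-values take the spread among samples close in time within 1 course as their error, and hold nothing on separate cultures.

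The first of these comparisons set 180 to 210 min against 60 to 90 min. Of all genes tested 30.8% were called higher and 6.76% lower. Of 210 rising genes that could be tested, 183 were called higher and none lower, and of 178 falling genes 170 were called lower and none higher. After each library was centred, the counts were 149 and 173, with 549 genes called higher and 640 lower among all. The 134 ribosomal protein genes were all called lower, with a median of -2.38 log2 units, as were 12 of 15 falling ribosome biogenesis genes, with a median of -0.79.

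TDH1 stood at 8.44, 8.43 and 8.34 log2 RPM at 60, 75 and 90 min and at 11.41, 11.47 and 11.56 at 180, 195 and 210 min, a difference of 3.08 (SE 0.12, adjusted p = 7.67e-21). RPL9A stood at 10.22, 10.19 and 10.16 before and at 7.91, 8.11 and 6.85 after, a difference of -2.56 (SE 0.42, adjusted p = 0.000234). HSP26 went from 7.21, 7.28 and 7.42 to 9.91, 10.20 and 10.79, by 3.0 (SE 0.20, adjusted p = 7.96e-11). In these 3 genes the windows did not overlap. NOP58 was lower by 0.95 (SE 0.17, adjusted p = 2.65e-05). DBP2, a helicase of ribosome biogenesis that the rule had called falling, was not called there (0.08, adjusted p = 0.868), and neither were YCR016W and MET8, which lay at the threshold.

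The second comparison set 330 to 360 min against 180 to 210 min, where 6.39% of all genes were called higher and 5.42% lower. Of the rising genes 53 of 210 were called higher and 4 lower, and the 19 of 39 rising stress genes called higher form part of the 53. HSP26 stood at 12.0, 12.27 and 12.60 log2 RPM at 330, 345 and 360 min, higher by 1.99 (SE 0.20, adjusted p = 7.03e-07), and HPF1 by 1.16 (adjusted p = 1.55e-07). GRE1, a hydrophilin, was higher by 2.79 (adjusted p = 8.64e-07). The 4 called lower were IRR1, AAD16, GRX6 and CLB1. PHO5, PHM6 and PHO89 were not called in either direction, at 0.17, -0.07 and -0.05.

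Among the falling genes 6 of 178 (3.37%) were called lower from 180 to 210 on to 330 to 360 min and none higher. That is a smaller share than the 5.42% of all genes called lower. The 6 are named for the record only. These were URA1, RPL37A, RPL7A, RPS3, RPS22B and RPS9A, of which RPS9A had the largest difference (-0.95, adjusted p = 0.000430). The count was 2 without the 180 min library, 3 without 195 min, 30 without 210 min and 1 without 345 min. The median of the falling genes relative to 105 min was -1.93, -2.61 and -2.77 log2 units at 195, 210 and 225 min, and -2.12, -2.74 and -2.22 at 330, 345 and 360 min.

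**Figure D5:**
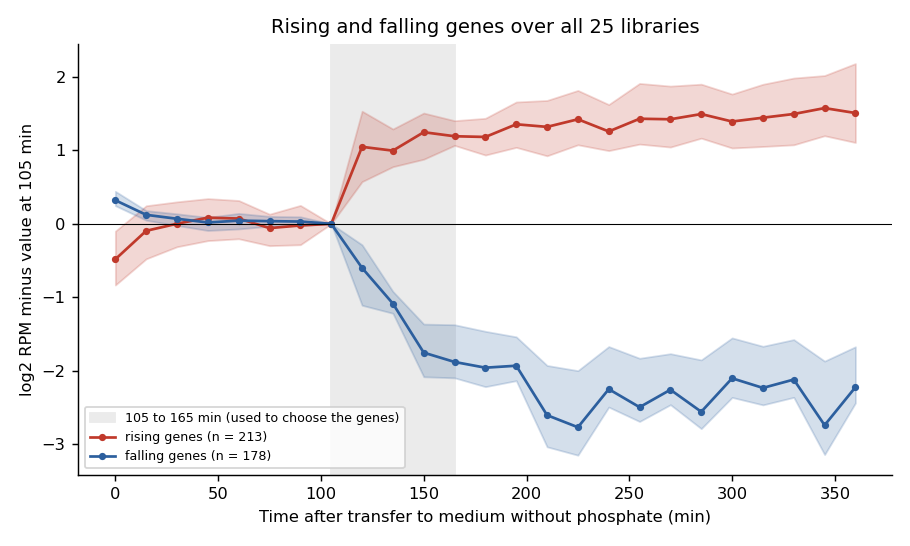
Median (line) and interquartile range (band) of the rising and falling genes in log2 RPM relative to 105 min, over all 25 libraries. The grey span marks the 5 libraries that chose the genes. The rising genes are at 1.19 and the falling ones at -1.88 at 165 min, and at 1.51 and -2.22 at 360 min.

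The third comparison asked what was already moving before the step, at 60 to 90 min against 15 to 45 min. Of all genes 0.217% were called higher and 0.217% lower, which is 10 each. Of the rising genes 6 were called higher, and 5 of the 6 are PHO genes: PHM6 (0.88, SE 0.14, adjusted p = 0.000614), PHO5 (1.18, SE 0.17, adjusted p = 0.000614), HOR2 (0.81, SE 0.16, adjusted p = 0.00869), PHO89 (1.18, SE 0.23, adjusted p = 0.0239) and PHM8 (0.61, SE 0.15, adjusted p = 0.0431). The sixth was CDA1, a chitin deacetylase (0.62, adjusted p = 0.0393). PHO5 stood at 8.74, 9.12 and 9.28 log2 RPM at 15, 30 and 45 min and at 9.82, 10.21 and 10.64 at 60, 75 and 90 min, a rise through the whole period. The count was 2 without the 15 min library, 2 without 30 min, 3 without 60 min and 1 without 90 min, and 1 without the trend and robust settings of limma. None of the 178 falling genes was called, with 2 at an unadjusted p under 0.05.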

How the data were processed

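Frozen cells were lysed with lyticase in 96-well plates, per the labels' protocols, RNA was isolated with a kit of that format, and libraries were sequenced on an Illumina instrument. Bowtie and build R64 are named in the submitters' processing notes. No version, counter, strand setting or rule for reads with several matches is given in the sources used here, and values of near-identical, overlapping or antisense genes are uncertain for that reason. The deposited table holds 1 column of log2 values per library, and their linear values sum to 1000000 (RPM). The 6701 lines include 51 with no name and no value, and IMP2, which stands on 2 lines, was left out.

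Reads were recovered by taking the smallest value of a column as 10 reads, and 96.3% of values below 400 RPM were then whole within 0.01. They describe depth and counting error only, which leaves out amplification and handling. At the floor the counting SD is 0.46 log2 units. No count model was run on them.

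The share done is the difference from 105 min divided by that at 165 min. The counting SE of the switch time was taken from the recovered reads. limma 3.58.1 in R 4.3.3 (lmFit, eBayes with trend and robust, no pseudocount) was fitted to 19 libraries in 6 windows, to genes with at least 2 values in each, and 3 rising genes (BUD19, HXT14 and ARO10) were not tested. The scripts were tested on simulated data. Of the 391 genes 383 matched the R64 annotation.

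The genes, the 36 gene lists, the 14 motifs and the tests were chosen with earlier results of these data known. The genes named were the 8 first, 8 last and 6 largest differences each way among genes with at least 30 reads in each of the 5 libraries, the members of the PHO lists, the first, last and largest of each other list with at least 3 members, and those at the threshold, of which 1 is not reported here. Other genes named, such as GRE1, MAF1, DBP2, CDA1 and those called in small counts, were chosen after their values were seen. Alternatives were other thresholds, centring, 10 RPM added, a minimum of 30 reads, other end points, linear shares, single libraries left out, and eBayes without trend and robust. Added after seeing the data were the use of genes with no value at 120 min and of coding lengths over 600 bases.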

Additional observations from a re-analysis of the deposited data

How the results depend on the processing

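The number of rising genes depended on every setting that bears on low levels or on scaling. It was 956 at a threshold of 0.5 log2 units and 36 at 1.5, 89 after centring, 86 with at least 30 reads, 136 with 10 RPM added, and 331 when no value was needed at 120 min, an alternative chosen after seeing the data. The number of falling genes was 338 at 0.5, 127 at 1.5, 232 after centring and 149 with at least 30 reads. The median switch time of rising genes was 124.9 min without the 120 min library and 125.9 min when no value was needed there. For falling genes it was 126.7 min after centring, 124.4 min with shares on linear RPM, 131.5 min without the 150 min library, and 126.8 min for coding lengths over 600 bases, the last chosen after seeing the data. Rising genes kept an earlier median than falling genes, most of them ribosomal protein genes, under each setting for which a switch time was computed. These settings draw on the same course and are not independent of each other. The 44 falling genes outside the ribosomal protein list were not later without 120 min, at 124.8 min against 124.9 min for rising genes. The cause of the shifts between settings was not tested.

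From 60 to 90 to 180 to 210 min, centring gave 549 genes called higher and 640 lower. Without trend and robust, 2 falling genes were called lower from 180 to 210 to 330 to 360 min, and from 15 to 45 to 60 to 90 min 1 gene was called higher and 1 lower, 1 of them a rising gene. With single libraries left out, the last of these comparisons gave 1 to 13 genes higher, 1 to 12 lower and 1 to 5 rising genes higher. In the late comparison it gave 190 to 357 genes higher, 2 to 4 rising genes lower, 0 to 1 falling genes higher and 1 to 30 falling genes lower. Of the values that answer a comparison, 175 others were not counted as shifted, which is a loose label. It takes in 127 falling genes at a threshold of 1.5 log2 units, against 178. It also takes in 172 genes called lower in the late comparison without the 360 min library, against 249, and counts of 0 that stayed 0. No paired analysis was possible because the labels give no replicate numbers and each time has 1 library. Depth at 120 min sets the limit on which genes enter.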

Other observations

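Several lists with few or no rising and falling genes had medians away from their 105 min level, given here as values with no test. The 41 translation factor genes stood at a median of -0.40 log2 units already at 120 min and at -0.43 at 165 min, and the 20 tRNA synthetase genes at -0.29 and -0.43. The 25 ergosterol genes stood at 0.10 at 120 min and 0.59 at 150 min, and the 35 proteasome genes at 0.30 and 0.60 at the same times and at 0.35 at 165 min. For all 3230 genes the median was 0.29, 0.30 and 0.26 at 120, 150 and 165 min. Rising genes took 3.17, 6.37, 8.08 and 13.9% of all reads at 105, 120, 165 and 360 min, and falling genes 28.0, 23.2, 8.10 and 6.55%.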
